A study of Sus scrofa with 48 samples.

Results

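The ileum of piglets in the high growth class was compared between day 39 and day 7 after weaning by RNA sequencing. The comparison rests on 12 of the 48 libraries of the study, 6 from day 39 and 6 from day 7, chosen by their labels for tissue, growth class and day. The animals were pigs (Sus scrofa) studied after weaning, with no allele, strain, diet, sex or litter given in the labels. The labels class each piglet by its average daily gain, counted from day 0 until it was sampled. The high growth class of day 7 was therefore set over a shorter period than that of day 39, and the day and this difference in the class cannot be told apart. Each library is polyA-selected RNA of whole ileum, so it mixes epithelium, lymphoid tissue, connective tissue and muscle. In such bulk samples fewer cells of a type and less RNA per cell cannot be told apart. The 12 libraries of low growth ileum, with 6 on each day, entered the same model and serve as the point of comparison where one is needed. No fit tested the low growth effect with any of these low growth libraries left out.

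The ileum is the last part of the small intestine. Its villi take up nutrients and recover bile acids, and its wall in pigs holds a long continuous Peyer's patch, a lymphoid organ filled with B cell follicles. After weaning the gut wall is known to fill with T cells, first helper cells in the lamina propria and later CD8 cells, many of which sit between epithelial cells. Enterocytes also make cholesterol, under the control of the transcription factor SREBP2, which switches on the genes of synthesis and uptake when sterols run low.

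Total estimated counts ranged from 14.36 to 22.3 M (M, mega) in the 12 libraries, and from 13921 to 15016 genes reached a count of 10. The epithelial markers VIL1, CDH1, EPCAM, FABP2, FABP6 and CDX2 summed to between 3271 and 9294 CPM (counts scaled to library size) on day 7 and between 4367 and 10493 on day 39. Intestinal epithelium was thus present in all libraries. No other gut site was set beside them, so the exact site of sampling was not tested. The Y-linked genes EIF1AY and KDM5D both reached 1 CPM in 1 of 6 day 7 libraries and in 3 of 6 day 39 libraries. By these genes the sexes were mixed unevenly, and the part of sex in the results was not tested.

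A pair of day 7 libraries stood apart from the other 10. Replicate 1 and replicate 5 had Spearman correlations of 0.916 and 0.866 with the median profile of the other 10 high growth libraries. Each of those 10, which themselves make up that profile, had 0.978 to 0.994 with it. In replicate 1, 2065 genes were more than 2-fold above that median and 1946 more than 2-fold below it. In replicate 5 these numbers were 3019 and 4667. Counts, list medians and fold changes of the day effect in high growth are therefore given with all 12 libraries and again without these 2, and where a gene is described by its levels alone no second value is given.

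Replicate 1 was low in genes of B cells, germinal centres and the T cell receptor and high in muscle and connective tissue genes. Its list of B cell genes summed to 463 CPM, against 3909 to 6060 in the 4 day 7 libraries other than replicates 1 and 5. Its germinal centre genes, which mark dividing B cells in follicles, summed to 262 CPM against 2499 to 3997. MS4A1, which encodes the B cell surface protein CD20, stood at 0.653 CPM in replicate 1 and at 236 to 284 CPM in those 4 libraries. Smooth muscle genes summed to 15562 CPM in replicate 1 against 3984 to 6520, and collagen and stroma genes to 26313 against 8701 to 13879. Its plasma cell genes summed to 3099 CPM against 2115 to 3065, and its genes of intraepithelial and cytotoxic lymphocytes to 663 CPM against 525 to 678.5, so these lists were not low. Epithelial lists were high too, with brush border peptidases at 14173 CPM against 6129 to 8556 and tight junction genes at 2539 against 1203 to 1711. Cell cycle genes were low, at 1434 CPM against 3744 to 5320. Replicate 1 was thus low in markers of follicles and in cell cycle genes, and high in markers of muscle, connective tissue and epithelium.

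Replicate 5 differed in another way. Its B cell list, at 4338 CPM, lay among the other day 7 libraries, while its macrophage and dendritic cell list was low at 808.5 CPM, against 2250 to 2912. Tight junction genes summed to 755 CPM, against 1203 to 1711, and cell cycle genes were high at 6677 CPM, against 3744 to 5320. It also had the fewest genes at a count of 10, namely 13921. A linear model that weights libraries by their fit gave replicate 1 a weight of 0.156 and replicate 5 a weight of 0.0569, the lowest of the 12.

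**Figure D1:**
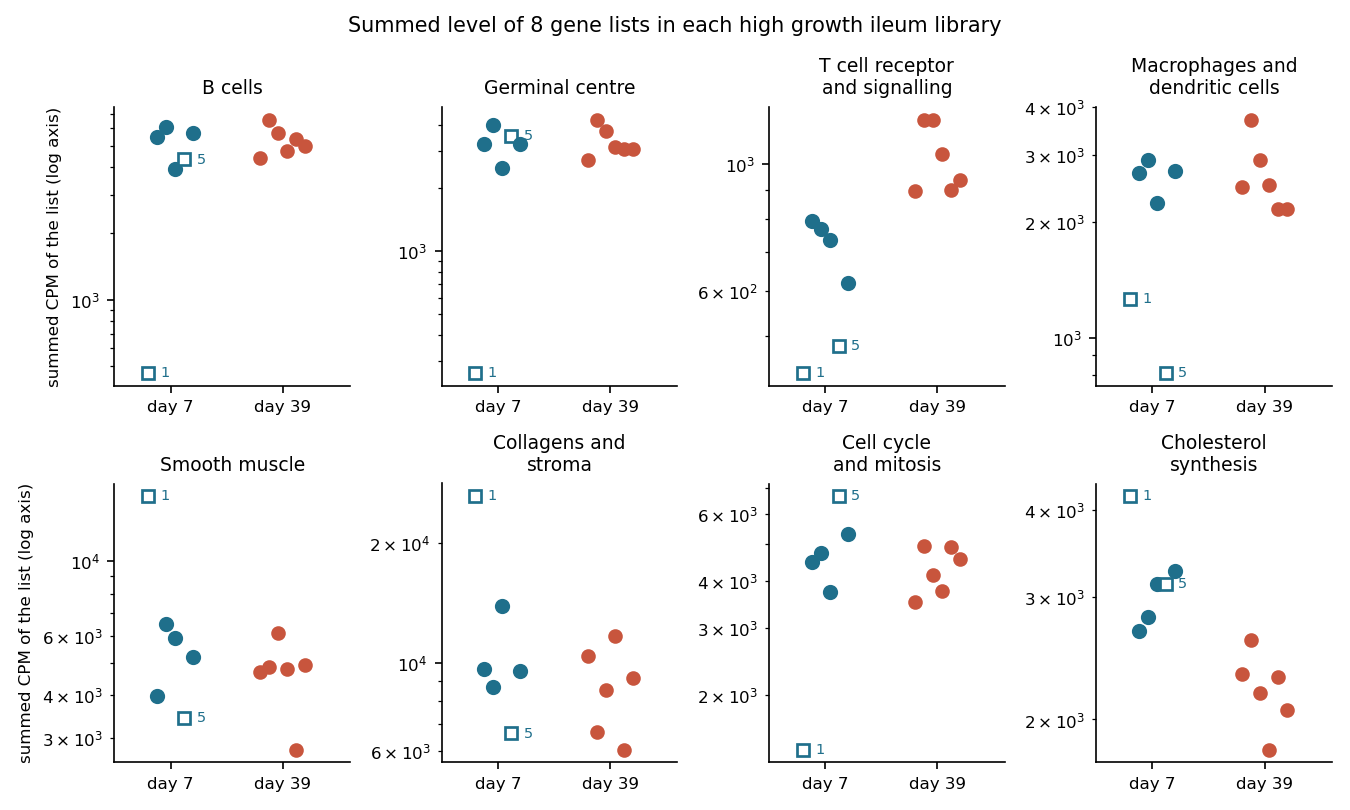
Summed CPM of 8 gene lists in each high growth ileum library, on log axes, with day 7 in blue and day 39 in red. Open squares numbered 1 and 5 are day 7 replicates 1 and 5. Replicate 1 lies far below the rest in B cell and germinal centre genes and far above in smooth muscle genes. By summed CPM the T cell and cholesterol lists separate the days in all 12 libraries.

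Across the genome few genes passed. Of 15256 genes tested with edgeR's quasi-likelihood F test, 2 rose on day 39 at an adjusted p below 0.05, which is 0.0131% of those tested, and 0 fell, or 0%. The gene CD8A was one of them, and the other was ENSSSCG00000045541, which has no symbol. At an unadjusted p under 0.05 there were 417 genes higher (2.73%) and 992 lower (6.5%). Leaving out replicates 1 and 5, edgeR called 2 of 15587 genes higher (0.0128%) and 0 lower (0%), and 1 gene, CD8A, was called both times. The unadjusted counts were then 304 higher (1.95%) and 206 lower (1.32%). These shares at an unadjusted p are the point of comparison for the counts of list members given below. DESeq2 was less strict on the same libraries, with 29 genes higher (0.19%) and 17 lower (0.112%) of 15240 with an adjusted p. Without the 2 libraries DESeq2 called 34 higher (0.232%) and 6 lower (0.0409%) of 14665, of which 21 higher and 4 lower were also called with them. The median log2 fold change of all genes was -0.04 with all libraries and -0.01 without replicates 1 and 5.

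CD8A encodes the alpha chain of CD8, the coreceptor of cytotoxic T cells, which intraepithelial lymphocytes carry as well. It lies on chromosome 3 at 57999228 to 58029768 (Sscrofa11.1). Its level in the 6 day 7 libraries ran from 8.84 over a median of 10.97 to 14.96 CPM, with 11.9 in replicate 1 and 8.84 in replicate 5. On day 39 the lowest library had 22.9, the median was 32.8 and the highest had 36.1 CPM. All day 39 libraries were above all day 7 libraries, and replicates 1 and 5 lay among or just below the other day 7 libraries. The group means were 11.2 ± 2.24 CPM on day 7 and 31.3 ± 5.1 CPM on day 39 (SD, n = 6). This was a log2 fold change of 1.48 ± 0.21 (SE), with an edgeR adjusted p of 0.00417. Leaving out replicates 1 and 5 gave 1.41, with an edgeR adjusted p of 0.0356. In low growth ileum CD8A also rose, by 1.27 ± 0.21 on the log2 scale, with an edgeR adjusted p of 0.0168.

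CD8A belongs to a list of 34 genes of the T cell receptor complex and its signalling, of which 29 were tested. Of these, 28 had a log2 fold change above 0, with a median of 0.68 against -0.04 for all genes. CD8A was the 1 member called by edgeR, and 15 members were higher at an unadjusted p under 0.05 with 0 lower. Without replicates 1 and 5 the median was 0.56, again with 28 of 29 above 0, and 14 members were higher at that unadjusted p. DESeq2 called 4 members higher with all libraries and 2 without replicates 1 and 5. The summed level of the list ran from 430 to 794 CPM on day 7 and from 896.5 to 1195 CPM on day 39, so the days did not overlap, with replicates 1 and 5 the lowest of all at 430 and 479.6 CPM.

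Further members of the list are given here because they were fixed by name, had the lowest p, were called by DESeq2 or had groups without overlap, while fold changes over the list ran from -0.41 to 1.48. CD8B, the beta chain of CD8, which lies beside CD8A on chromosome 3 at 57968358 to 57986450, averaged 4.88 ± 2.29 CPM on day 7 and 13.5 ± 4.65 CPM on day 39. Its log2 fold change was 1.46 ± 0.39, with an edgeR adjusted p of 0.283, and 1.39 without replicates 1 and 5. DESeq2 gave CD8B an adjusted p of 0.0463 with all libraries and 0.0897 without those 2. CD3E, a signalling chain of the T cell receptor, ran from 19.5 over 41.0 to 61.8 CPM on day 7, where replicate 5 was the lowest, and from 58.7 over 81.5 to 95.9 CPM on day 39. The highest day 7 library thus reached into the day 39 range. CD3E had a log2 fold change of 0.97 ± 0.25, with an edgeR adjusted p of 0.275, and 0.79 without replicates 1 and 5.

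CD5 and CD6, neighbouring genes on chromosome 2 that encode related receptors damping T cell activation, had fold changes above the median of the list. CD6 ran from 1.72 over 8.79 to 13.6 CPM on day 7 and from 17.6 over 21.2 to 28.5 CPM on day 39, with no overlap. Replicate 1 at 4.9 CPM and replicate 5 at 1.72 CPM were the lowest day 7 libraries, and the others began at 8.71 CPM. The log2 fold change of CD6 was 1.43 ± 0.32, with an edgeR adjusted p of 0.105, and 1.05 without replicates 1 and 5, with an edgeR adjusted p of 0.25. DESeq2 called CD6 higher both times, with adjusted p of 0.00437 and 0.0104. CD5 averaged 16.1 ± 7.97 CPM on day 7 and 37.8 ± 13.8 CPM on day 39, a log2 fold change of 1.23 ± 0.30 that became 0.88 without replicates 1 and 5.

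**Figure D2:**
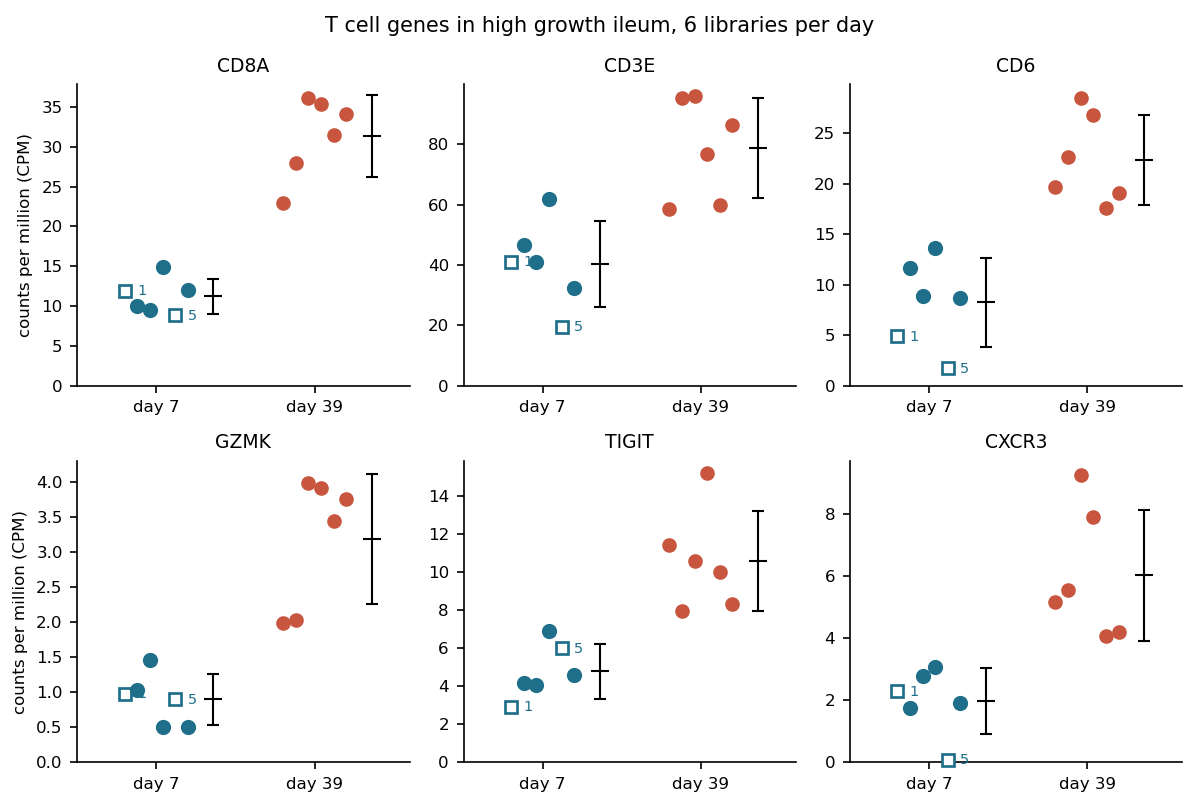
Levels of 6 T cell genes in CPM in each high growth ileum library, with the mean and SD of each group of 6 in black. Open squares numbered 1 and 5 are day 7 replicates 1 and 5. CD8A, CD6, GZMK, TIGIT and CXCR3 have all day 39 libraries above all day 7 libraries, and for CD3E the groups overlap.

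Groups without overlap were rare in the whole table. Day 39 lay wholly above day 7 for 44 genes (0.288%) and wholly below for 28 (0.184%) of the 15256 tested. Leaving out replicates 1 and 5 gave 107 (0.701%) and 60 (0.393%). The T cell receptor list held 3 such genes with all libraries, all higher on day 39, and 5 without those 2.

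Genes of cytotoxic and intraepithelial lymphocytes had higher values on day 39 in part. Of 37 genes listed, 29 were tested, and 22 had a log2 fold change above 0, with a median of 0.46, or 0.49 without replicates 1 and 5. None was called by edgeR, while 10 were higher and 1 lower at an unadjusted p under 0.05, and 14 were higher without replicates 1 and 5. DESeq2 called 1 member higher, GZMK, and 2 without those libraries. GZMK, a serine protease of the granules of memory T cells, ran from 0.509 over 0.939 to 1.46 CPM on day 7. On day 39 it ran from 2.0 over 3.61 to 3.99 CPM, above every day 7 library. Replicates 1 and 5, at 0.98 and 0.899 CPM, lay in the middle of day 7. GZMK had a log2 fold change of 1.83 ± 0.41, with an edgeR adjusted p of 0.105, and 1.86 without replicates 1 and 5.

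ITGAE encodes the integrin CD103, which holds lymphocytes in the epithelium. It averaged 34.8 ± 4.78 CPM on day 7 and 55.2 ± 13.8 CPM on day 39, with no overlap between the days. This gave a log2 fold change of 0.66 ± 0.17, with an edgeR adjusted p of 0.267, and 0.70 without replicates 1 and 5. In low growth ileum the day effect on ITGAE was 1.27 ± 0.17 and passed, with an edgeR adjusted p of 0.00188. The high growth effect less the low growth effect was -0.60 ± 0.24, which did not pass, with an edgeR adjusted p of 0.987, and was -0.56 without replicates 1 and 5. TBX21, the transcription factor T-bet of type 1 and cytotoxic cells, named after its values were seen because its groups did not overlap, averaged 3.61 ± 2.03 CPM on day 7 and 7.13 ± 1.18 CPM on day 39.

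The checkpoint and costimulation list had 19 tested members of 22, with a median log2 fold change of 0.25, or 0.10 without replicates 1 and 5. The members differed in sign, with 12 above 0 and 7 below, or 13 and 6 without those libraries, the lowest at -0.81. Of the 19, 6 were higher at an unadjusted p under 0.05 and 0 lower, with 5 higher without replicates 1 and 5, and DESeq2 called 3 higher in each fit, of which TNFRSF4 was called with all libraries only. TIGIT, an inhibitory receptor of T and natural killer cells, ran from 2.94 over 4.39 to 6.94 CPM on day 7 and from 7.95 over 10.3 to 15.2 CPM on day 39. The groups did not overlap, and replicates 1 and 5 stood at 2.94 and 5.99 CPM. TIGIT had a log2 fold change of 1.15 ± 0.23, with an edgeR adjusted p of 0.0869, and 1.09 without replicates 1 and 5, with an edgeR adjusted p of 0.213. In low growth TIGIT rose by 1.24 ± 0.23, with an edgeR adjusted p of 0.0247.

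PDCD1, the inhibitory receptor PD-1, averaged 4.91 ± 2.88 CPM on day 7 and 14.8 ± 5.46 CPM on day 39. Its log2 fold change was 1.58 ± 0.38, and 1.15 without replicates 1 and 5, where the lowest day 7 value, 0.524 CPM in replicate 5, was left out. TNFRSF4, the costimulatory receptor OX40 of activated helper cells, had a log2 fold change of 1.61 ± 0.41, which was 1.19 without those libraries. For PDCD1 the DESeq2 adjusted p was 0.00873 with all libraries and 0.02 without those 2. TNFRSF4 had a DESeq2 adjusted p of 0.0218 with all libraries and 0.17 without those 2.

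PVRIG, an inhibitory receptor related in ligand use to TIGIT, had a log2 fold change of 1.12 ± 0.27, or 0.83 without replicates 1 and 5. It was called higher by DESeq2 with all libraries, at an adjusted p of 0.018, and not without those 2, at 0.252, and was named after its value was seen. EPHB6, an ephrin receptor without kinase activity that T cells carry, was likewise named, at 13.3 ± 5.52 CPM on day 7 and 33.7 ± 11.96 CPM on day 39. The fold change of EPHB6 was 1.34 ± 0.29 on the log2 scale, or 1.05 without replicates 1 and 5, and DESeq2 called it both times, with adjusted p of 0.0036 and 0.02. SLA, a small adaptor that lowers receptor signalling in lymphocytes, differed least of these, with a log2 fold change of 0.48 ± 0.13, or 0.33 without replicates 1 and 5, and a DESeq2 adjusted p of 0.047, which was 0.34 without the 2 libraries.

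Of 56 chemokines, interleukins and receptors listed, 45 were tested, with a median log2 fold change of 0.19, or 0.09 without replicates 1 and 5. The signs were mixed, with 29 above 0 and 16 below, or 31 and 14 without those libraries, and the lowest fold change was -2.24. At an unadjusted p under 0.05, 8 were higher and 0 lower, and without replicates 1 and 5 there were 5 higher and 0 lower. CXCR3, the receptor for interferon-induced chemokines on type 1 T cells, ran from 0.0749 over 2.09 to 3.07 CPM on day 7 and from 4.08 over 5.36 to 9.25 CPM on day 39. The days did not overlap, and replicate 5 with 0.0749 CPM lay far below the other day 7 libraries, which began at 1.77. CXCR3 had a log2 fold change of 1.59 ± 0.39, with an edgeR adjusted p of 0.197, and 1.33 without replicates 1 and 5, with an edgeR adjusted p of 0.213. DESeq2 called CXCR3 higher both times, at adjusted p of 0.00529 and 0.0049.

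CXCR6, which marks T cells resident in tissue, averaged 2.8 ± 1.17 CPM on day 7 and 6.17 ± 1.6 CPM on day 39. The highest day 7 library was replicate 1 with 4.31 CPM, which reached the lowest day 39 library at 4.11. CXCR6 had a log2 fold change of 1.13 ± 0.27, or 1.10 without replicates 1 and 5, and DESeq2 called it both times, at adjusted p of 0.0106 and 0.0049. GPR55, a lipid receptor found on intraepithelial lymphocytes in mice, was named after its value was seen. It averaged 5.21 ± 1.84 CPM on day 7 and 11.9 ± 2.39 CPM on day 39, a log2 fold change of 1.19 ± 0.25, or 1.11 without replicates 1 and 5. DESeq2 called GPR55 both times, at adjusted p of 0.00309 and 0.00632, and in low growth it rose by 1.48 ± 0.25, with an edgeR adjusted p of 0.0168.

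B cell and plasma cell genes gave no such picture. Of 26 B cell genes tested, 0 had an unadjusted p under 0.05 in edgeR, and DESeq2 called 0. The median log2 fold change was 0.31 with all libraries and -0.02 without replicates 1 and 5, beside the low B cell level of replicate 1. CD79A, a chain of the B cell receptor, stood at 15.2 CPM in replicate 1 and at 126 in replicate 5, against 314 to 619 in the other day 7 libraries and 364 to 686 on day 39. Germinal centre genes had a median of 0.16, and 0.02 without those libraries. For plasma cell genes the medians were 0.14 and 0.02. JCHAIN, the joining chain of secreted IgA, ran from 330 to 1194 CPM on day 7 and from 588 to 1155 CPM on day 39, with wide overlap. PIGR, the receptor that carries IgA through the epithelium, ran from 122.7 to 409 CPM on day 7 and from 153 to 302 CPM on day 39, again with overlap.

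Of 14 genes of red blood cells listed, 3 were tested, with log2 fold changes from 0.37 to 2.95. The others had no symbol in the tables or did not pass the filter on low counts. The 3 genes thus do not speak for red cell genes as a group. HBB, the beta chain of haemoglobin on chromosome 9 at 4800683 to 4801941, ran from 12.3 over 13.6 to 54.4 CPM on day 7 and from 38.0 over 119.6 to 184 CPM on day 39. The day 7 libraries other than replicates 1 and 5 lay between 12.3 and 13.7 CPM, and replicate 5 with 54.4 CPM was the 1 day 7 library inside the day 39 range. HBB had a log2 fold change of 2.35 ± 0.46, with an edgeR adjusted p of 0.0769. In the fit without replicates 1 and 5 it was 3.07, with an edgeR adjusted p of 0.0293, so HBB was called higher in that fit. In low growth the log2 fold change was 1.62 ± 0.45, with an edgeR adjusted p of 0.257. Reads of near-identical globin genes can be split between them, so the level of HBB alone is uncertain.

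ALAS2, the erythroid enzyme that starts haem synthesis, had a log2 fold change of 2.95 ± 0.58, with an edgeR adjusted p of 0.0806. It ran from 0 over 0.275 to 0.457 CPM on day 7, and from 0.763 over 1.86 to 3.55 CPM on day 39, without overlap. The day 7 levels lay below what the filter asks for, so among these 12 libraries ALAS2 met the filter through day 39 only. The library at 0 was replicate 5, where a count of 0 allows up to 0.225 CPM. Without replicates 1 and 5 the log2 fold change was 2.91, with an edgeR adjusted p of 0.213, and DESeq2 called ALAS2 both times, at adjusted p of 0.000317 and 0.00336. The 3 red cell genes summed to 13.3 to 54.6 CPM on day 7 and 40.2 to 188 CPM on day 39, nearly all of it HBB. ALAS2 is made in young red cells and not in the gut wall, and whether blood in the tissue differed was not tested.

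**Figure D3:**
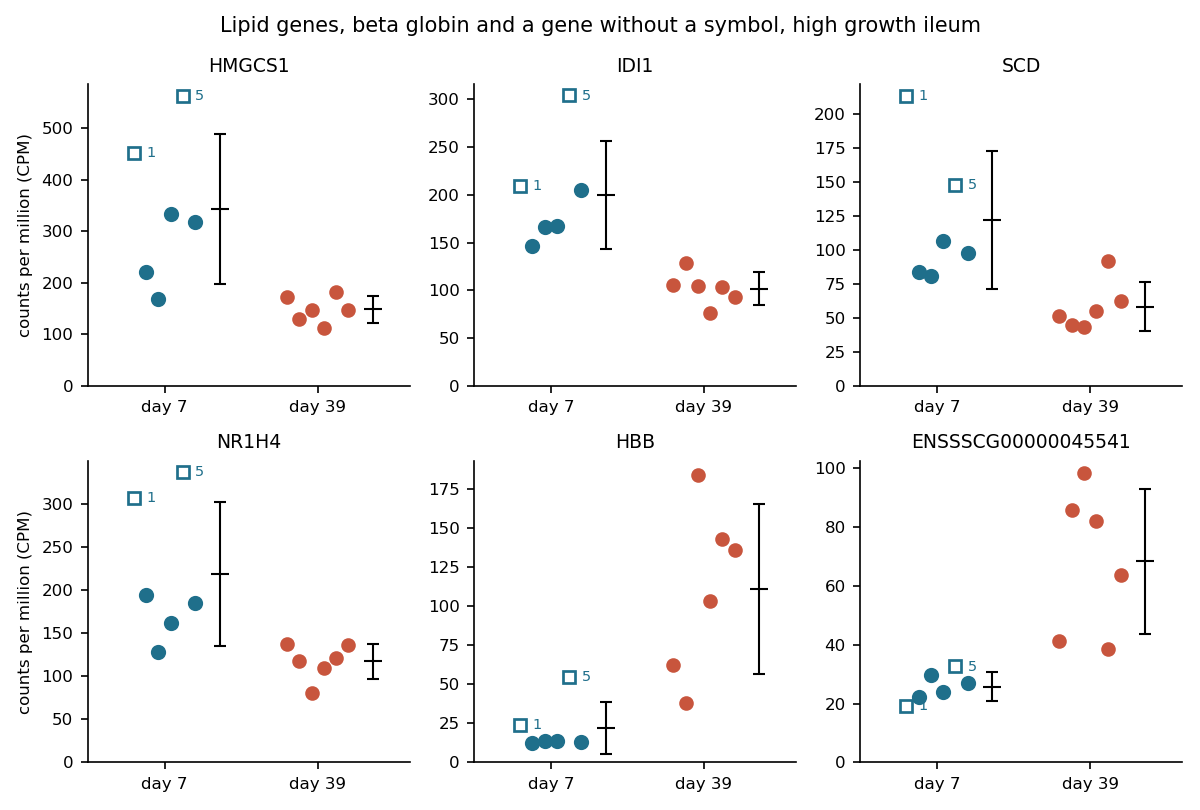
Levels in CPM of HMGCS1, IDI1, SCD, NR1H4, HBB and the gene ENSSSCG00000045541 in each high growth ileum library, with the mean and SD of each group of 6 in black. Open squares numbered 1 and 5 are day 7 replicates 1 and 5. The lipid genes have lower means on day 39 and their highest value in replicate 1 or 5, and HBB and ENSSSCG00000045541 are higher, with HBB of replicate 5 inside the day 39 range.

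Genes of cholesterol synthesis were lower on day 39 in high growth ileum in most members, though none was called by edgeR. All 24 members found in the tables, of 25 listed, were tested, and 21 had a log2 fold change below 0. The median was -0.64, against -0.04 for all genes. At an unadjusted p under 0.05, 14 were lower and 0 higher. With replicates 1 and 5 left out the median was -0.53, all 24 were below 0, and 12 were lower at that p. DESeq2 called 3 lower, HMGCS1 and IDI1 among them, and 0 without the 2 libraries. The summed level ran from 2676 over 3132 to 4180 CPM on day 7 and from 1810 over 2241 to 2601 CPM on day 39. By this sum the days did not overlap, replicate 1 was the highest library at 4180 CPM, and replicate 5 at 3133 CPM lay among the other day 7 libraries. By the mean log2 CPM of the list, which gives each gene equal weight, replicate 5 had 5.906. The other day 7 libraries had 6.221 to 6.833 and day 39 ran from 5.552 to 6.176, so replicate 5 lay inside the day 39 range.

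HMGCS1, the enzyme that makes the substrate of HMG-CoA reductase, lies on chromosome 16 at 27936225 to 27957261. It ran from 169 over 326 to 563 CPM on day 7 and from 111.5 over 148 to 182 CPM on day 39. Replicate 1 with 453 CPM and replicate 5 with 563 CPM were the highest libraries, and the lowest day 7 library lay inside the day 39 range. HMGCS1 had a log2 fold change of -1.21 ± 0.25, with an edgeR adjusted p of 0.105, and -0.83 without replicates 1 and 5, with an edgeR adjusted p of 0.493. DESeq2 gave HMGCS1 an adjusted p of 0.00289 with all libraries and 0.17 without those 2.

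The enzymes further down the pathway had values of like direction. IDI1, which makes the isoprenoid building block, averaged 200 ± 56.5 CPM on day 7 and 102 ± 17.2 CPM on day 39. Its groups did not overlap, and its log2 fold change was -0.97 ± 0.24, or -0.76 without replicates 1 and 5. MSMO1, which removes methyl groups from sterol intermediates, had a log2 fold change of -0.98 ± 0.27, or -0.68 without those libraries. For CYP51A1, the lanosterol demethylase, these values were -0.75 ± 0.20 and -0.57.

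A further 3 members without overlap between days were named after their values were seen. SQLE, the epoxidase that starts the sterol branch, averaged 91.4 ± 20.4 CPM on day 7 and 52.4 ± 10.7 CPM on day 39. ACAT2, an acetyl-CoA thiolase, averaged 61.0 ± 3.47 CPM and 39.8 ± 4.2 CPM, and its log2 fold change of -0.62 was the same to 2 digits without replicates 1 and 5. INSIG1, which holds SREBP in the endoplasmic reticulum, averaged 179 ± 62.5 CPM and 113.7 ± 21.4 CPM. The cholesterol list held 4 genes wholly lower on day 39 with all libraries and 7 without replicates 1 and 5.

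**Figure D4:**
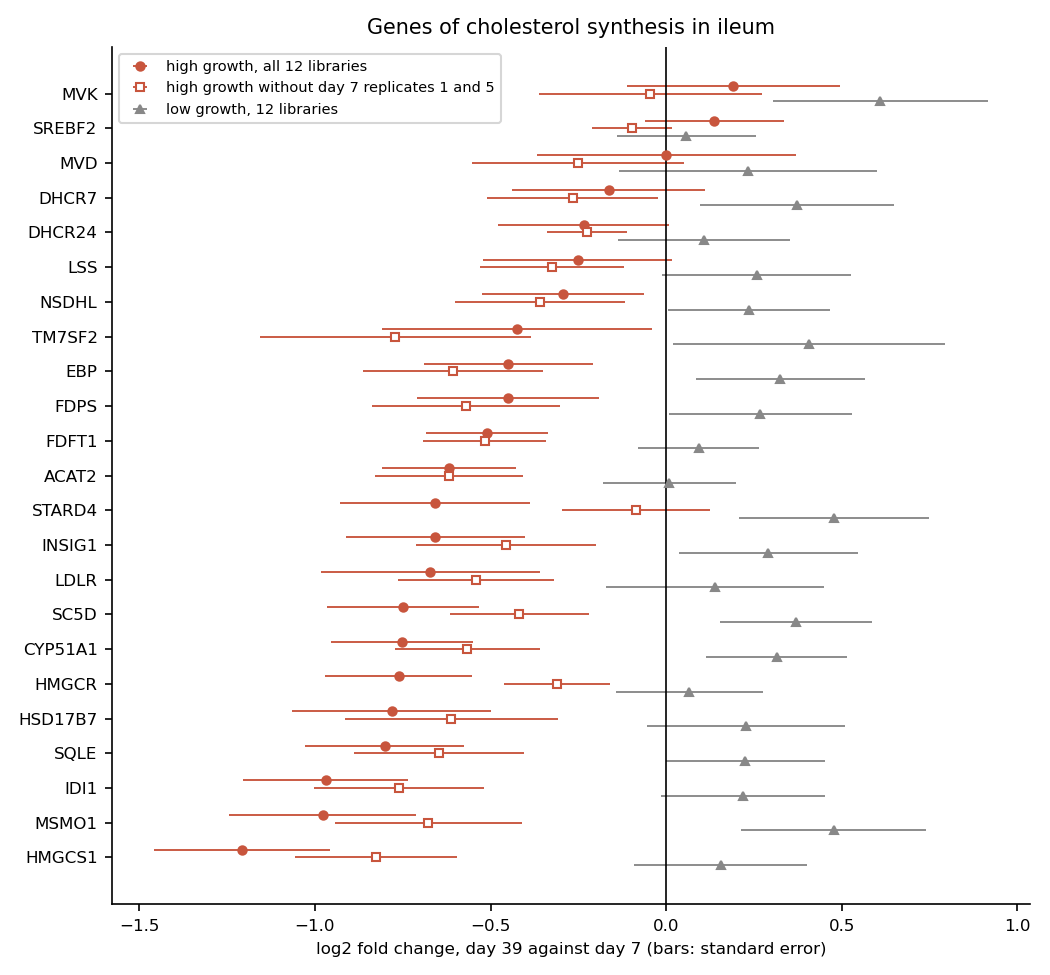
Log2 fold change of day 39 against day 7 with its standard error for 23 of the 24 tested genes of cholesterol synthesis, in high growth ileum with all 12 libraries (filled circles), without day 7 replicates 1 and 5 (open squares) and in low growth ileum (grey triangles). Of the 23 genes plotted, 20 have a high growth value below 0, or all 23 without those libraries, and all 23 have a low growth value above 0.

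The day effect on this list was set beside that in low growth. There all 24 members had a log2 fold change above 0, with a median of 0.25. Low growth day 7 also held libraries that stood apart. Its replicate 5 had the lowest sum of this list, at 1332 CPM. Its replicate 3 had a Spearman correlation of 0.957 with the high growth median profile and a weight of 0.249, both the lowest of low growth. The B cell and cell cycle lists of that replicate 3 were the lowest of low growth day 7. The low growth effect without these libraries was not tested. The high growth effect less the low growth effect had a median of -0.82 over the list, or -0.70 without replicates 1 and 5. It was lower at an unadjusted p under 0.05 in 14 of 24 members and higher in 0, where over all genes such values held for 2.47% and 0.537%. Without replicates 1 and 5 it was lower in 15 and higher in 0, where over all genes these held for 1.25% and 0.674%. None of the 15256 genes passed the adjusted test of that difference in edgeR, either higher (0%) or lower (0%), at an unadjusted count of 82 and 377, and DESeq2 called 2 genes, neither in the list. Without replicates 1 and 5 edgeR again called 0 of 15587 genes, at an unadjusted count of 105.0 higher and 195 lower. The largest differences by p were in the list: MSMO1 had -1.46 ± 0.37 and HMGCS1 had -1.36 ± 0.35, both with an edgeR adjusted p of 0.987. With those libraries left out these were -1.14 for MSMO1 and -0.97 for HMGCS1. The summed level was 1332 to 2623 CPM in low growth on day 7, below every high growth library of that day at 2676 to 4180 CPM. On day 39 it was 1852 to 3142 CPM in low growth and 1810 to 2601 CPM in high growth, with wide overlap.

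SCD and GPAM had the lowest p in the list of lipid absorption and apolipoproteins. SCD, the desaturase that makes oleic acid, ran from 81.0 over 102 to 213 CPM on day 7 and from 43.4 over 53.4 to 91.9 CPM on day 39. Replicates 1 and 5, at 213 and 148 CPM, were the highest, and a single day 39 library lay inside the day 7 range. SCD had a log2 fold change of -1.06 ± 0.24, with an edgeR adjusted p of 0.129, and -0.68 without replicates 1 and 5, and DESeq2 called it lower with all libraries only, at adjusted p of 0.0111 against 0.516. GPAM, the first enzyme of triglyceride synthesis, had a log2 fold change of -0.61 ± 0.18, or -0.27 without those libraries.

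The list as a whole had 24 tested members with a median log2 fold change of 0.14, or 0.27 without replicates 1 and 5 and 0.71 in low growth. At an unadjusted p under 0.05, 5 were higher and 2 lower, and without those libraries 5 and 1. APOA4, an apolipoprotein of chylomicrons, averaged 139.2 ± 85.8 CPM on day 7 and 327 ± 157 CPM on day 39, a log2 fold change of 1.23 ± 0.60, with an edgeR adjusted p of 0.532, or 0.92 without replicates 1 and 5. ENPP7, the brush border sphingomyelinase that digests milk sphingomyelin, averaged 0.942 ± 0.574 CPM and 6.32 ± 3.27 CPM. All its day 39 libraries lay above all day 7 libraries, and its log2 fold change of 2.72 ± 0.79 had an edgeR adjusted p of 0.325, against 2.34 without replicates 1 and 5 and 2.64 in low growth.

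Bile acid genes differed in the sign of their values. NR1H4, the bile acid receptor FXR, ran from 128 over 190 to 337 CPM on day 7 and from 80.7 over 119.2 to 137.9 CPM on day 39. Replicates 1 and 5 were highest at 307 and 337 CPM, and the lowest day 7 library lay in the day 39 range. NR1H4 had a log2 fold change of -0.90 ± 0.25, with an edgeR adjusted p of 0.296, and -0.53 without replicates 1 and 5. FABP6, the bile acid carrier of the ileal enterocyte, averaged 2487 ± 1677 CPM on day 7 and 4419 ± 1779 CPM on day 39, a log2 fold change of 0.83 ± 0.35, or 0.90 without replicates 1 and 5. SLC10A2, the bile acid transporter of the brush border, had a log2 fold change of -0.48 ± 0.37 in high growth, or -0.30 without those libraries, and 1.23 ± 0.38 in low growth. The difference, -1.71 ± 0.53, did not pass, with an edgeR adjusted p of 0.987, and was -1.52 without replicates 1 and 5.

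FGF19, the hormone by which the ileum restrains bile acid synthesis in the liver, depended on a single library. On day 7 replicate 1 had 105 CPM, replicate 5 had 0, where a count of 0 allows up to 0.225 CPM, and the others lay between 0.0926 and 0.951 CPM. On day 39 it ran from 0.633 over 5.1 to 9.27 CPM. The log2 fold change was -1.76 ± 1.22 with all libraries, at an edgeR adjusted p of 0.555, and 3.75 without replicates 1 and 5, at 0.416. DESeq2 called FGF19 higher without those libraries, at an adjusted p of 0.0292. The lowest day 7 library left in that fit, at 0.0926 CPM, lay below what the filter on low counts asks for. Day 7 alone would thus not have kept FGF19, and the call is not read as support.

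Digestive enzymes and nutrient transporters overlapped between the days. SI, sucrase-isomaltase, ran from 359 to 1646 CPM on day 7 and from 602 to 1032 CPM on day 39, and replicates 1 and 5 held the highest values, at 1631 and 1646 CPM. Without those libraries the highest day 7 value was 869.5 CPM, and the log2 fold change of SI went from -0.30 to 0.26. MGAM, maltase-glucoamylase, had a log2 fold change of 0.19 ± 0.30, or 0.63 without replicates 1 and 5. In low growth MGAM rose by 1.5 ± 0.30, with an edgeR adjusted p of 0.0454. The sodium-glucose transporter SLC5A1 had log2 fold changes of -0.27 ± 0.21 in high growth, or 0.01 without replicates 1 and 5, and 0.87 ± 0.21 in low growth. The difference of -1.14 ± 0.30 had an edgeR adjusted p of 0.987 and was -0.85 without those libraries.

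The sugar list as a whole had a median of -0.21 over 12 tested genes, which became 0.23 without replicates 1 and 5, against 0.81 in low growth. KHK, fructokinase, was the member of lowest p, at 110.4 ± 55.1 CPM on day 7 and 202 ± 91.9 CPM on day 39, a log2 fold change of 0.87, or 0.80 without those libraries. CPO, a brush border carboxypeptidase, averaged 107.9 ± 45.8 CPM and 164 ± 25.7 CPM, with log2 fold changes of 0.60 and, without replicates 1 and 5, 0.98. The brush border peptidases had a median of 0.19, or 0.32 without replicates 1 and 5, with 1 of 12 tested members higher at an unadjusted p under 0.05 and 2 without those libraries. FABP2, the fatty acid carrier of enterocytes, ran from 210 to 961 CPM on day 7 and from 334 to 895 CPM on day 39.

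Enteroendocrine genes had a median of -0.32 over 20 tested, or -0.10 without replicates 1 and 5. At an unadjusted p under 0.05, 5 were lower and 0 higher, and without those libraries 1 was lower. SCG2, a granule protein of endocrine cells, averaged 14.1 ± 8.23 CPM on day 7 and 6.33 ± 1.65 CPM on day 39, and GCG, the gene of the GLP peptides, 96.2 ± 41.7 and 55.1 ± 17.7 CPM. For both, replicate 1 held the highest day 7 value, at 30.2 and 167 CPM. For SCG2 the log2 fold change was -1.15, or -0.65 without replicates 1 and 5, and that of GCG was -0.81, or -0.44. CHGA, a general endocrine marker, ran from 20.7 to 136.4 CPM on day 7 and from 52.9 to 126 CPM on day 39. Goblet cell genes had a median of -0.18, or -0.16 without replicates 1 and 5, and MUC2, the main mucin, ran from 109.8 to 1072 CPM on day 7 and from 384 to 839 CPM on day 39.

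Stem cell genes of the crypt had a median of -0.26, which was -0.08 without replicates 1 and 5. OLFM4, a crypt base marker, averaged 1025 ± 640 CPM on day 7, with 2184 CPM in replicate 1, and 533 ± 110.3 CPM on day 39, a log2 fold change of -0.94 ± 0.34 that became -0.41 without those libraries. LGR5, the stem cell receptor, ran from 1.2 to 6.34 CPM and from 0.985 to 3.27 CPM, with a log2 fold change of -0.42 that became 0.05. Cell cycle genes had a median of -0.02, or -0.09 without replicates 1 and 5, and in both fits 0 of 33 tested had an unadjusted p under 0.05 in either direction by edgeR, with 0 called by DESeq2. Ribosomal protein genes had a median of 0.00 and oxidative phosphorylation genes one of -0.05, which were -0.05 and -0.025 without those libraries, all within 0.1 of that of all genes.

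Among cells of the myeloid line the members differed in sign. LYVE1, a hyaluronan receptor of lymph vessels and of some tissue macrophages, averaged 21.7 ± 8.9 CPM on day 7 and 10.7 ± 1.58 CPM on day 39, without overlap. This gave LYVE1 a log2 fold change of -1.02 ± 0.26, or -0.78 without replicates 1 and 5, with DESeq2 adjusted p of 0.0492 and 0.593. C1QA, a complement gene of macrophages, averaged 252 ± 83.3 CPM and 355 ± 78.2 CPM, a log2 fold change of 0.49, or 0.23 without those libraries. The list of 23 tested macrophage and dendritic cell genes had a median of 0.19, or 0.01 without those libraries, with 2 members higher and 4 lower at an unadjusted p under 0.05, and 0 and 3 without them. SPP1, the secreted phosphoprotein osteopontin, was called lower by DESeq2 and named after its value was seen. It ran from 160 over 252 to 486 CPM on day 7 and from 76.1 to 135.2 CPM on day 39, with no overlap. The log2 fold change of SPP1 was -1.36 ± 0.30, with an edgeR adjusted p of 0.105, and -1.14 without replicates 1 and 5. DESeq2 gave SPP1 an adjusted p of 0.00456 with all libraries and 0.0897 without those 2, so that call was lost.

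CASP1, the inflammasome protease that matures interleukin 1 beta and interleukin 18, was also lower by DESeq2 and named after its value was seen. It lies on chromosome 9 at 35188066 to 35199364. It ran from 84.3 over 120.6 to 195 CPM on day 7 and from 44.0 over 56.8 to 65.0 CPM on day 39. The days did not overlap, and replicate 1 had the highest value while replicate 5 with 112.4 CPM lay among the others. The log2 fold change was -1.16 ± 0.25, with an edgeR adjusted p of 0.105, and -1.0 without replicates 1 and 5, with an edgeR adjusted p of 0.321. DESeq2 gave CASP1 an adjusted p of 0.00437 with all libraries and 0.0648 without those 2, and in low growth its log2 fold change was -0.11 ± 0.25. BPI, a protein that kills gram-negative bacteria, averaged 175 ± 142.3 CPM on day 7, with 441 in replicate 1, and 63.7 ± 14.4 CPM on day 39, a log2 fold change of -1.46, or -1.14 without replicates 1 and 5.

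Interferon-stimulated genes had a median of -0.39 over 37 tested, with 34 below 0. With replicates 1 and 5 left out the median was -0.09, with 29 below 0 and 0 lower at an unadjusted p under 0.05. With all libraries there was 1 lower member at that p, IFIT2, with 646 CPM in replicate 1, 24.7 to 252 CPM in the day 7 libraries other than replicates 1 and 5, and 28.3 to 140.6 CPM on day 39. Summed levels of the list ran from 4458 to 24071 CPM on day 7, the highest being replicate 1, and from 4324 to 14957 CPM on day 39.

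Connective tissue, muscle and nerve genes were lower on day 39 by values that shrank when replicates 1 and 5 were left out. All 19 tested smooth muscle genes had log2 fold changes below 0, with a median of -0.47, which was -0.17 without those libraries, with 15 of 19 below 0. Collagen and stroma genes had 26 of 29 below 0, with medians of -0.47 and -0.24. For enteric neurons, glia and pacemaker cells 21 of 22 were below 0, with medians of -0.58 and -0.23. At an unadjusted p under 0.05 the lower members numbered 6, 9 and 4 in these lists, and 1, 2 and 0 without replicates 1 and 5. Over all genes the share lower at that p also fell, from 6.5% to 1.32%. The summed smooth muscle level was 15562 CPM in replicate 1 and 2760 to 6106 CPM on day 39.

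MFAP5, a microfibril protein of connective tissue, averaged 22.1 ± 10.9 CPM on day 7 and 9.4 ± 3.26 CPM on day 39, with no overlap. Its log2 fold change was -1.23 ± 0.33, or -0.92 without replicates 1 and 5, and DESeq2 gave adjusted p of 0.047 and 0.573. COL5A2, a fibrillar collagen chain, had a log2 fold change of -0.77 ± 0.25, or -0.44 without those libraries. For CALD1, a regulator of smooth muscle contraction, these were -0.72 ± 0.27 and -0.21, and for VIP, a transmitter of enteric neurons, -1.05 ± 0.38 and -0.41. MYH11, the smooth muscle myosin heavy chain, ran from 304 to 2485 CPM on day 7 and from 610 to 964 CPM on day 39, and its log2 fold change went from -0.26 to 0.04 without replicates 1 and 5. The growth factor IGF1 ran from 0.3 to 4.05 CPM on day 7 and from 1.54 to 2.8 CPM on day 39.

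**Figure D5:**
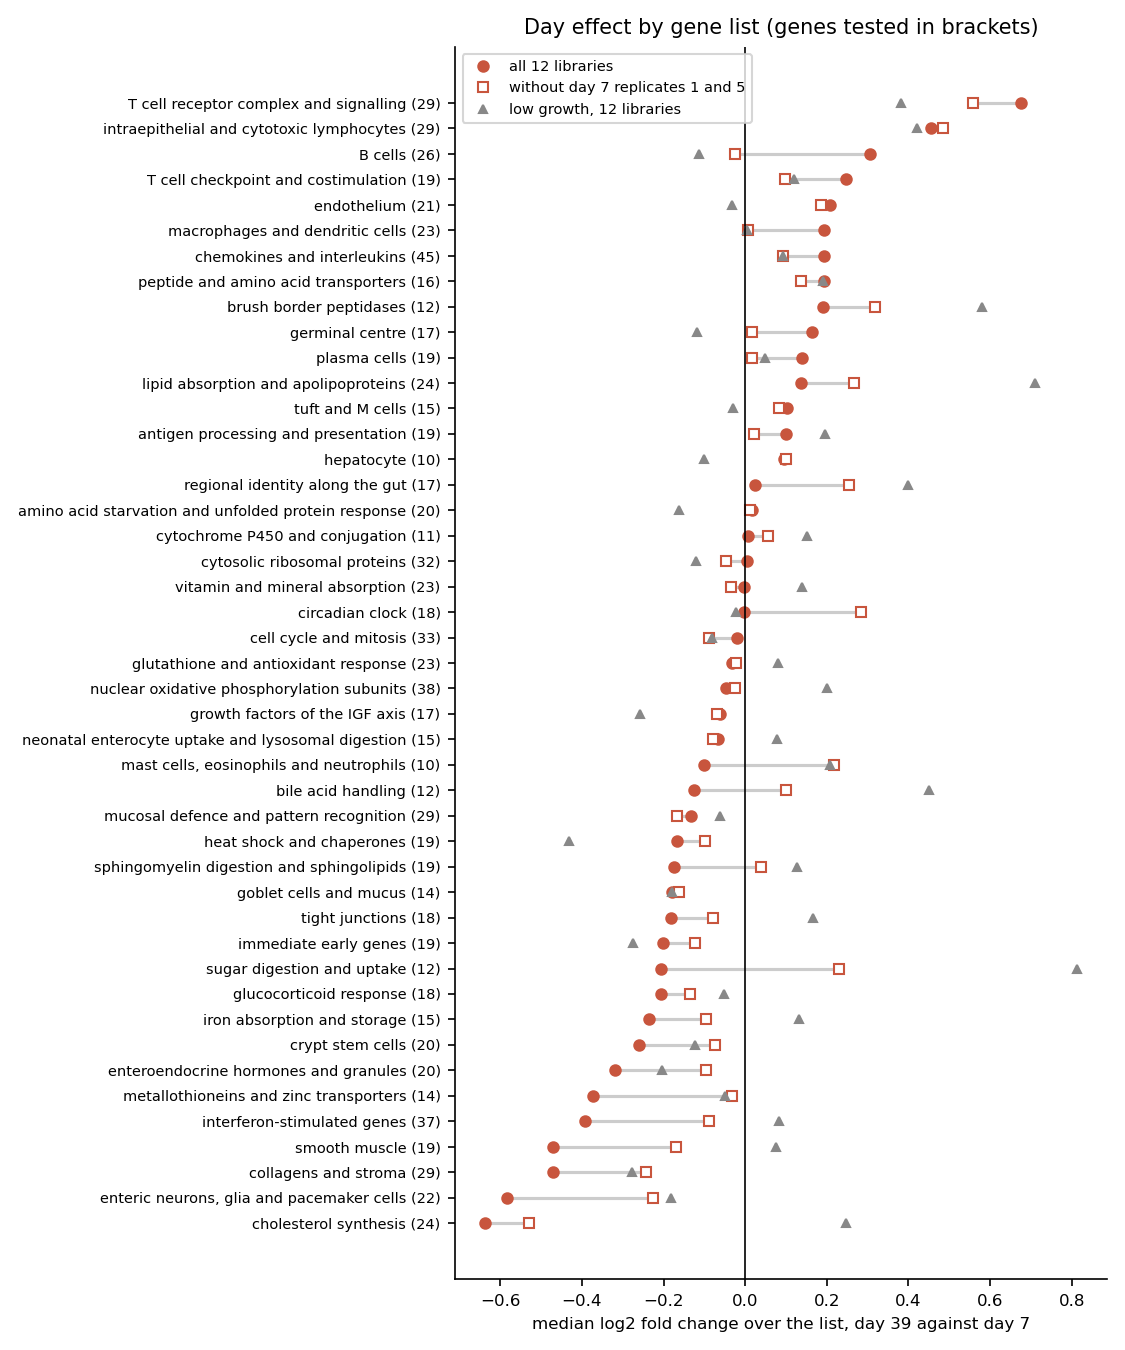
Median log2 fold change of day 39 against day 7 over each gene list with at least 10 tested genes, in high growth ileum with all 12 libraries (filled circles), without day 7 replicates 1 and 5 (open squares) and in low growth ileum (grey triangles). The T cell list has the highest median, at 0.68 and 0.56, and the cholesterol list the lowest, at -0.64 and -0.53, while the B cell, interferon, muscle and nerve lists lie nearer 0 without the 2 libraries.

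Single iron, calcium and early response genes had values below 0, while their lists held both signs. Above and below 0 were 4 and 11 iron genes, 11 and 12 vitamin and mineral genes, and 5 and 14 immediate early genes. The list medians were -0.236, -0.002 and -0.202, or -0.096, -0.034 and -0.123 without replicates 1 and 5. TFRC, the transferrin receptor, averaged 73.1 ± 42.0 CPM on day 7, with 155 in replicate 5, and 40.3 ± 8.94 CPM on day 39, a log2 fold change of -0.86 ± 0.24, or -0.40 without replicates 1 and 5. S100G, the calcium carrier calbindin-D9k of enterocytes, averaged 95.8 ± 46.9 CPM and 26.7 ± 16.4 CPM, and ATP2B1, a calcium pump of the basal membrane, 160 ± 63.1 CPM and 99.3 ± 21.9 CPM. The log2 fold change of S100G was -1.84, or -1.66 without replicates 1 and 5, and that of ATP2B1 was -0.68, or -0.35. EGR1, an immediate early transcription factor, had a log2 fold change of -0.72 ± 0.20, or -0.59 without replicates 1 and 5 and -0.79 in low growth. CPS1, the mitochondrial enzyme that starts citrulline synthesis in the gut, averaged 536 ± 312 CPM, with 1084 in replicate 1, and 262 ± 62.5 CPM, a log2 fold change of -1.03 that became -0.46 without those libraries. None of these passed edgeR or DESeq2 with all libraries.

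The second gene called by edgeR, ENSSSCG00000045541, has no symbol here and no role can be given. It ran from 19.1 over 25.5 to 32.6 CPM on day 7 and from 38.7 over 72.9 to 98.4 CPM on day 39, without overlap, and replicates 1 and 5 held the lowest and the highest day 7 value. Its log2 fold change was 1.41 ± 0.24, with an edgeR adjusted p of 0.0255. Without replicates 1 and 5 the log2 fold change was 1.40 and the edgeR adjusted p was 0.125, so the call was lost. It was also lost when day 7 replicate 1, 2 or 4 or day 39 replicate 2, 3, 4 or 6 was left out, with edgeR adjusted p between 0.053 and 0.128, while CD8A kept its call each time.

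DESeq2 called 46 genes in all, 32 of them with a symbol, and those given next were named after their values were seen. Carbonic anhydrase genes gave 2 of the higher ones. CA12, a membrane form, averaged 27.2 ± 12.7 CPM on day 7 and 64.5 ± 21.3 CPM on day 39, with DESeq2 adjusted p of 0.0343 and, without replicates 1 and 5, 0.02. CA5A, a mitochondrial form, averaged 2.29 ± 0.643 CPM and 5.18 ± 1.19 CPM, with DESeq2 adjusted p of 0.0209 and 0.0047, and it rose in low growth by 1.56 ± 0.29, with an edgeR adjusted p of 0.0247. Among genes without a symbol, ENSSSCG00000007978 had the lowest DESeq2 adjusted p after CD8A, 4.27e-05, shared with ENSSSCG00000045541, and averaged 11.9 ± 7.25 CPM on day 7 and 66.3 ± 29.5 CPM on day 39. That p is from all 12 libraries, and the value without replicates 1 and 5 is not given here. By edgeR ENSSSCG00000007978 was called in neither fit.

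On the lower side, PI15, a secreted peptidase inhibitor, had a log2 fold change of -1.67 ± 0.38, or -0.94 without replicates 1 and 5, with DESeq2 adjusted p of 0.00437 and 0.564. CTNND2, a delta catenin of cell junctions, averaged 6.56 ± 1.39 CPM on day 7 and 3.19 ± 0.729 CPM on day 39, without overlap, and DESeq2 called it both times, at adjusted p of 0.00352 and 0.0398. CCDC198 was likewise called both times, with a log2 fold change of -1.76 ± 0.39, the same to 2 decimals without those libraries. CHST9, a sulfotransferase, had -1.46 ± 0.36, or -1.13 without them, and its DESeq2 call was lost, at adjusted p of 0.0218 and 0.52. PCDH10, a protocadherin, and CRABP1, a carrier of retinoic acid, had the lowest day 39 levels of these, at 0.311 ± 0.302 and 0.0803 ± 0.0926 CPM, against 2.06 ± 1.85 and 0.891 ± 0.746 CPM on day 7. Their DESeq2 calls were also lost without replicates 1 and 5, at adjusted p of 0.016 and 0.34 for PCDH10 and of 0.0413 and 0.0671 for CRABP1. The day 39 means of both lay below what the filter on low counts asks for, so day 39 alone would not have kept them. For CRABP1 that mean also lay below what 3 counts make in the day 39 libraries, 0.166 to 0.211 CPM. These calls are therefore not read as support.

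In low growth ileum the same contrast of days called 17 genes higher (0.111%) and 3 lower (0.0197%) of 15256 by edgeR, and 1 gene, CD8A, was called in both growth classes. By edgeR no gene passed the test of the difference between the classes, with or without replicates 1 and 5, and DESeq2 called 2 and 3 genes, so neither of the 2 edgeR calls is shown to belong to high growth alone. The genes of lowest p for that difference, besides MSMO1 and HMGCS1, were SLC5A1, CYP51A1 and C17orf78, with differences of -1.14 ± 0.30, -1.07 ± 0.28 and -1.52 ± 0.41, which were -0.85, -0.87 and -1.41 without replicates 1 and 5.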

How the data were processed

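PolyA-selected RNA of piglet ileum was sequenced as paired reads, with a mean RNA integrity number of 7.8 per the labels. Trim Galore, kallisto, DESeq2 and the build Sscrofa11.1 are named in the submitters' processing notes, without versions. What the authors deposited is a table of estimated counts per gene, of which 53% are not whole, and a table of normalized signal, which is the same count times 1 factor per library. The second served only an alternative.

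Counts were rounded. Of 22924 genes, 14894 had a symbol in a RefSeq table, which also gave the coordinates for matching symbols. Genes passing filterByExpr (minimum count 10, minimum total 15) were scaled by TMM and tested in 1 model of 4 groups over the 24 ileum libraries, by edgeR's quasi-likelihood F test (version 4.0.16, R 4.3.3), two-sided, with Benjamini-Hochberg adjustment at 0.05. SE is from that model, and CPM is per scaled library size. The common biological coefficient of variation was 0.349, and 0.282 without day 7 replicates 1 and 5. Alternatives used DESeq2 1.42.0, voom and limma-trend on log2 of the deposited normalized signal plus 1 (limma 3.58.1). Further ones used other size factors, no filter, the 12 high growth libraries alone, a smooth muscle covariate, or left out each high growth library in turn. The fit was also run on simulated counts with the same spread for all genes and no outlying library. That run therefore says nothing of libraries such as day 7 replicates 1 and 5.

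The libraries and the 50 gene lists, with 931 tested genes, were chosen with earlier results of these data known. Named were up to 4 called members of each list, or otherwise the 2 of lowest p as not passing, genes of lowest p for the difference between growth classes, and a set of gut genes fixed by name, of which 3 have no value. Only some of those named by the rule are described in the text, and 2 genes that count in the lists are not reported by name or plotted here. Replicate numbers follow accession order and pair nothing. As nothing says that replicates are separate animals, p-values measure the spread between samples, which may be partly technical. The limit for a count of 0 is 3 counts and covers counting error only.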

Additional observations from a re-analysis of the deposited data

Results flagged for a closer look

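Of the 98 sets of 6 values examined, 8 had 1 library far from the other 5 by a test of its gap to the nearest library against the whole range (Dixon, 95% level), which flags about 5% of groups by chance. All 8 were on day 7. Values are log2 CPM or, for a list, the mean log2 CPM of its genes. Replicate 5 was the lowest in CXCR3, at -2.38 against 0.91 to 1.67 in the others. Replicate 1 was the highest in FGF19, at 6.71 against -3.09 to 0.10, and the highest in enteric neuron, glia and pacemaker genes, at 3.34 against 1.49 to 2.18. It was the lowest in MS4A1, at -0.38 against 7.89 to 9.04, in B cell genes, at 2.72 against 6.69 to 7.23, in germinal centre genes, at 3.18 against 6.38 to 6.98, and in the 3 pancreas acinar genes tested, at -1.47 against 1.68 to 2.64. Replicate 6 had the highest total count, at 22.3 M against 14.36 to 17.15 M.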

How the results depend on the processing

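The number of genes higher on day 39, 2 in edgeR, was 29 in DESeq2, 34 in DESeq2 without day 7 replicates 1 and 5, 4 in voom, 10 in voom with quality weights, 5 in limma-trend on the normalized table, 6 with the smooth muscle covariate and 1 with the 12 high growth libraries alone. It was 1 to 4 when 1 library was left out. The number lower, 0, was 17 in DESeq2, 6 in DESeq2 without those libraries, 1 in voom with quality weights and 0 to 1 when 1 library was left out, the gene being HMGCS1 without day 7 replicate 3. For the difference between growth classes, 0 genes became 2 in DESeq2 and 3 in DESeq2 without those libraries, and stayed at 0 when 1 high growth library was left out. The weighted fit and DESeq2 without the 2 libraries were chosen after seeing the data. The cause of these differences was not tested.

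Of the 82 genes that the text follows in these settings, 9 changed sign in at least 1, and none of the 9 was called by edgeR in any. The log2 fold change of FGF19, -1.76, was 3.75 without replicates 1 and 5, also in DESeq2, -2.03 to 4.03 with 1 library left out, the highest without replicate 1, 2.81 in voom, 4.44 in voom with weights, 2.47 in limma-trend and 1.91 with the covariate. Without replicates 1 and 5, in edgeR and in DESeq2, SLC5A1 went from -0.27 to 0.014 and 0.026, SI from -0.30 to 0.26 and 0.28, LGR5 from -0.42 to 0.047 and 0.059, and MYH11 from -0.26 to 0.042 and 0.052. In voom with weights SI was at 0.32, LGR5 at 0.059 and MYH11 at 0.17. MYH11 was at 0.023 in voom, 0.30 with the covariate and -0.44 to 0.24 with 1 library left out. MUC2, at -0.03, was at 0.24 in voom, 0.19 in limma-trend, 0.076 with the covariate and -0.24 to 0.23 with 1 library left out. With 1 library left out MS4A1, at 0.04, ran from -0.22 to 0.37, CHGA, at 0.13, from -0.067 to 0.35, and IGF1, at 0.05, from -0.17 to 0.31. No paired analysis was possible because the labels give no replicate numbers that match animals across days.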
